A study of Mus musculus with 2 samples.

Results

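The miR-199, miR-214 and miR-140 genes, 5 of the 1973 microRNA (miRNA) genes with a row in the count tables, were followed in forebrain of mouse embryos. They were taken by name, as Mir199a-1, Mir199a-2, Mir199b, Mir214 and Mir140, through the Ensembl ID of each row and the GENCODE M21 annotation, by a rule that uses names alone. The series held 1 group of 2 samples, forebrain from B6NCrl embryos at embryonic day 12.5, with both sexes pooled. Replicate 1 was a pool of 120 embryos and replicate 2 a pool of 68 embryos, each read as 1 library of RNA below 30 nt. A difference between the pools is therefore also a difference between dissections and libraries, and these cannot be told apart.

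MicroRNAs are cut as short arms, named 5p and 3p, from the sides of a hairpin in a longer transcript, and they lower the output of messenger RNAs that pair with their seed, bases 2 to 8. Mir199a-2 and Mir214 are cut from Dnm3os, a non-coding transcript that runs opposite to the dynamin gene Dnm3 and is needed for skeletal growth in the mouse. The miR-199 and miR-214 genes are known for expression in embryonic mesenchyme, the loose connective tissue that forms skull, dermis and meninges. Mir140 lies in Wwp2, a ubiquitin ligase gene, and is the best known miRNA of cartilage, where the transcription factor Sox9 drives it. Meninges and skull mesenchyme lie directly on the embryonic forebrain.

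The mature arms that RefSeq gives for the 5 genes in GRCm38.p6 are shown to tell apart the genes by what a read of each can match. Capitals mark the seed.
miR-199a-5p of Mir199a-1 and Mir199a-2: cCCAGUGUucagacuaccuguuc
miR-199a-3p of Mir199a-1 and Mir199a-2: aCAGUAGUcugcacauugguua
miR-199b-3p of Mir199b: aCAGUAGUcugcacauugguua
miR-214-5p of Mir214: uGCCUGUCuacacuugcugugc
miR-214-3p of Mir214: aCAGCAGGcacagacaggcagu
miR-140-3p of Mir140: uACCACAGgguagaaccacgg

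The 3p arms of the miR-199 genes were identical over all 22 bases, so a read of this arm alone fits 3 hairpins. The 5p arm of 23 bases was identical between Mir199a-1 and Mir199a-2. The miR-214 and miR-140 arms occurred in no other M21 hairpin. The seeds CAGUAGU of miR-199 and CAGCAGG of miR-214-3p had 5 of 7 bases in common, and these arms began with the same 4 bases. Over their whole length miR-199a-3p and miR-214-3p had 8 of 22 bases equal, and miR-140-3p had 1 of 21 bases equal with miR-199a-3p.

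The hairpins of the miR-199 genes are shown next, because the counts leave out reads that match several places. Capitals mark every base in a 22-base window that also occurs in another M21 hairpin.
Mir199a-1: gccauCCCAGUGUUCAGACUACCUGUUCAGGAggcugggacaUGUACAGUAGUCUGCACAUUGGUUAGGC
Mir199a-2: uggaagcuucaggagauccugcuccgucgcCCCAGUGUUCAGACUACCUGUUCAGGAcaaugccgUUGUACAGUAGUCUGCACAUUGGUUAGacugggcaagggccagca
Mir199b: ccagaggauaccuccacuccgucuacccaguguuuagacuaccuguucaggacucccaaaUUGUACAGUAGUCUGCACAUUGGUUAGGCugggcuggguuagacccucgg

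Mir199a-1 and Mir199a-2 each had 2 shared stretches, which held their 5p and 3p arms entirely. Mir199b had 1 shared stretch of 29 bases, around its 3p arm. Its stretch nearest to miR-199a-5p, bases 26 to 48 of the hairpin, differed from that arm by a single substitution, C10U, where the base of miR-199a-5p stands first, the position is counted from 1 at the 5′ end of the arm, and the base of Mir199b stands last. The pair is shown with the differing base of Mir199b in capitals.
miR-199a-5p: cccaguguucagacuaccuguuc
Mir199b, bases 26 to 48: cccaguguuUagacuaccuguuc
The seed of this stretch equals that of miR-199a-5p, while a read over the substitution fits Mir199b and no other M21 hairpin. In windows, 36 of 49 were unique in Mir199a-1, 77 of 89 in Mir199a-2 and 81 of 89 in Mir199b, against 89 of 89 in Mir214 and 49 of 49 in Mir140.

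**Figure D1:**
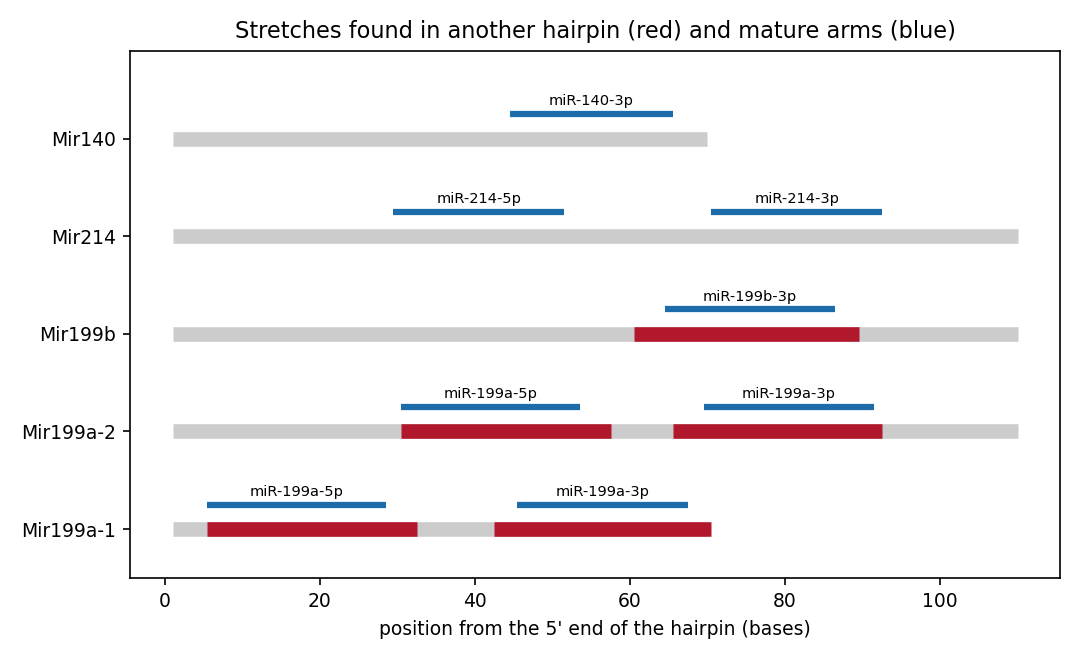
Map of the 5 hairpins, from the 5′ end in bases. Grey bars are hairpins, red bars the stretches made of 22-base windows that occur in another hairpin, and blue bars the mature arms given by RefSeq. In Mir199a-1 and Mir199a-2 every blue bar lies over red, in Mir199b its 3p arm does, and Mir214 and Mir140 have no red.

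All positions are on mm10. Mir199a-1 (ENSMUSG00000065547.1) lies on chromosome 9, from 21496495 to 21496564 on the minus strand, within introns of all 10 Dnm2 transcripts that span it and opposite to them. Mir199b (ENSMUSG00000092807.1) lies on chromosome 2, from 32318460 to 32318569 on the plus strand, opposite to introns of all 10 Dnm1 transcripts that span it. Mir199a-2 (ENSMUSG00000070126.1) lies on chromosome 1, from 162217814 to 162217923 on the plus strand, and Mir214 (ENSMUSG00000065516.1) from 162223368 to 162223477. Both lie in exons of Dnm3os on its own strand and opposite to introns of Dnm3, with 5444 bases between them. Dnm1, Dnm2 and Dnm3 encode dynamins, the proteins that pinch vesicles off the cell membrane. Mir140 (ENSMUSG00000065439.1) lies on chromosome 8, from 107551244 to 107551313 on the plus strand, the strand of Wwp2. It is intronic in 3 protein-coding Wwp2 transcripts and within an exon of 1 transcript with a retained intron.

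The libraries held 11104730 reads in replicate 1 and 11154304 reads in replicate 2, of which 4333194 in replicate 1 and 4397107 in replicate 2 were assigned to a gene on its strand. Levels are counts per 1000000 of these assigned reads (CPM). Arms differ little in length, so the main scale does not divide by hairpin length. Both arms of Mir199a-1 and Mir199a-2 occur whole in other hairpins, so the CPM of these 2 genes cannot be read as levels of their whole arms. The 3p arm of Mir199b does too, so its CPM cannot be read as a level of that arm. Reads that matched several places made up 46.0% of mapped reads in replicate 1 and 45.5% in replicate 2, and are outside the gene counts. Of the 9 neural miRNA genes with a row, 5 reached 100 reads over both pools, against 316 of all 1973 genes. All 7 genes of an epithelial list reached it too, so this count does not check the tissue label. The 5 neural genes ranged from Mir137 at 5207 ± 112.5 CPM (SD, n = 2) to Mir128-2 at 169.5 ± 6.99 CPM. The other 4 neural genes had few assigned reads. Mir124a-2 stood at 6.29 ± 1.07 CPM and Mir9-2 at 5.61 ± 0.428 CPM. Mir124a-3 stood at 2.18 ± 0.139 CPM and Mir124a-1 at 1.95 ± 0.830 CPM. By name these 4 are copies, and reads that fit several copies are outside the counts. Their low counts therefore do not show that the miRNAs were absent. Mir9-3, Mir128-1 and Mir128-2 are copies by name too, yet reached 100 reads. Whether shared arms set the 4 low genes apart was not tested. Intervals cover counting error only.

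Mir140 was the highest of the 5 genes, with 19929 reads or 4599 CPM in replicate 1 and 21903 reads or 4981 CPM in replicate 2. Its mean level was 4790 ± 270.2 CPM (SD, n = 2), place 49 of 1973 genes. Of these 1973 genes, 1210 had no reads in either pool and 403 had at least 10 reads in both. The pools differed by little, and Mir140 stood at place 51 in replicate 1 and place 47 in replicate 2.

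Mir214 had 13078 reads or 3018 CPM in replicate 1 and 17918 reads or 4075 CPM in replicate 2. Its mean level was 3547 ± 747.3 CPM (SD, n = 2), place 59. Replicate 1 was the lower pool. Of the 5 genes, Mir214 was the only one with reads on the opposite strand, 0 in replicate 1 and 2 in replicate 2, which is below the 3 counts that a count of 0 allows.

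Mir199b led the miR-199 genes, with 1348 reads or 311.1 CPM in replicate 1 and 1928 reads or 438.5 CPM in replicate 2, a mean of 374.8 ± 90.1 CPM (SD, n = 2) at place 154. Mir199a-2, on the same transcript as Mir214, had 173 reads or 39.9 CPM in replicate 1 and 245 reads or 55.7 CPM in replicate 2, a mean of 47.8 ± 11.2 CPM at place 254. Mir199a-1 had 16 reads or 3.69 CPM in replicate 1 and 27 reads or 6.14 CPM in replicate 2, a mean of 4.92 ± 1.73 CPM at place 363. Each of the 3 genes was lower in replicate 1.

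The order by level in CPM was Mir140, Mir214, Mir199b, Mir199a-2 and Mir199a-1, and the pools of no neighbouring pair overlapped. The smallest step was from Mir140 to Mir214, whose means differed 1.35-fold, and the other steps were 9.46-fold, 7.84-fold and 9.73-fold. Shared arms of the miR-199 genes can be missing from their CPM, so these other steps are in assigned reads, not in arms made. An exact permutation test of 2 values against 2 cannot give a two-sided p below 0.333, so these steps were not tested. Per 100 bases of hairpin the order was the same, with Mir140 at 6843 ± 386.0 CPM and Mir214 at 3224 ± 679.4 CPM (SD, n = 2), a wider gap because the Mir140 hairpin has 70 bases and that of Mir214 has 110.

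**Figure D2:**
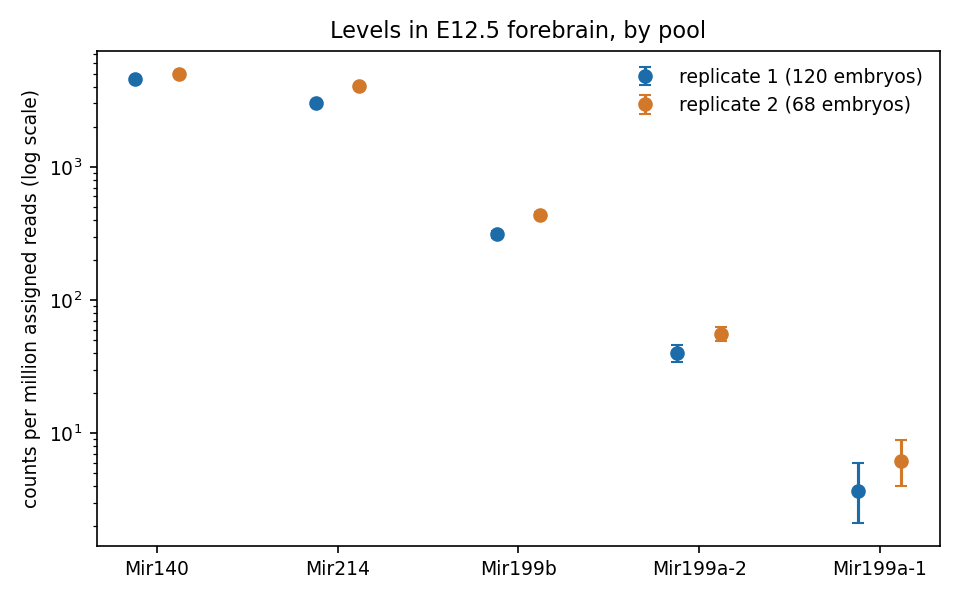
Levels of the 5 genes in CPM on a log axis, replicate 1 in blue and replicate 2 in orange, with exact Poisson intervals for counting error as bars. Replicate 1 is the lower point in all 5 genes, and the points of no gene reach those of its neighbour.

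The 5 genes together held 0.797% of assigned reads in replicate 1 (95% Wilson interval 0.789% to 0.806%) and 0.956% in replicate 2 (0.947% to 0.965%). Mir140 and Mir214 made up nearly all of it. Mir140 held 57.7% of the reads of the 5 genes in replicate 1 and 52.1% in replicate 2, and Mir214 held 37.9% in replicate 1 and 42.6% in replicate 2.

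Among reads of the miR-199 genes, the split between loci was close in the pools. Mir199b held 87.7% in replicate 1 (95% Wilson interval 86.0% to 89.3%) and 87.6% in replicate 2 (86.2% to 88.9%). Mir199a-2 held 11.3% in replicate 1 (9.77% to 12.9%) and 11.1% in replicate 2 (9.89% to 12.5%). Mir199a-1 held 1.04% in replicate 1 (0.642% to 1.68%) and 1.23% in replicate 2 (0.845% to 1.78%). For every locus the intervals of the pools overlapped. This split counts only reads that were assigned to 1 place, and arms common to several loci, shown above in capitals, can be missing from it. Whether the low reads of Mir199a-2 and Mir199a-1 come from this was not tested.

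Mir214 and Mir199a-2, cut from the same transcript, differed widely in assigned reads. Both arms of Mir199a-2 occur whole in other hairpins, while those of Mir214 occur in no other. Their read ratio is therefore not a ratio of arms made. Mir214 had 75.6 times the reads of Mir199a-2 in replicate 1 (95% exact interval 65.1 to 88.3) and 73.1 times in replicate 2 (64.5 to 83.3). The quotient of these ratios, replicate 1 over replicate 2, was 1.03 (0.850 to 1.26), so the pools could not be told apart in this ratio at this depth. Mir199b is on another chromosome, and its reads too kept close to those of Mir214. Mir214 had 9.70 times the reads of Mir199b in replicate 1 (9.17 to 10.3) and 9.29 times in replicate 2 (8.87 to 9.75), a quotient of 1.04 (0.970 to 1.12).

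Mir140 did not keep the same ratio to Mir214 in the pools. It had 1.52 times the reads of Mir214 in replicate 1 (95% exact interval 1.49 to 1.56) and 1.22 times in replicate 2 (1.198 to 1.247). The log2 of the quotient was 0.32 with a standard error of 0.02 from counting, so the difference was beyond counting error. With 1 library for each pool it has no replicate check. In bulk tissue, fewer cells of a type and less RNA per cell cannot be told apart.

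All 5 genes were lower in replicate 1 than in replicate 2. Only 4 of them are among the 316 genes with at least 100 reads over both pools, of which 58.5% were lower. A difference was called where the higher pool stood at least 25% above the lower, as CPM + 1, since no test across samples is possible with 1 library for each pool. Of the 4 genes that reached 100 reads, 3 were lower by this rule and 1, Mir140, was not. The rule called 13.3% of the 316 genes lower in replicate 1 and 6.96% higher. No member was called at 1.5-fold or at 2-fold, where 4.43% and 1.27% of genes were lower. Mir199a-1, with 43 reads in all, did not reach the minimum.

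Mir199b had a log2 ratio of replicate 1 to replicate 2 of -0.49, or 0.709 times the CPM (95% exact interval 0.661 to 0.761). Mir199a-2 stood at -0.47, or 0.717 times (0.586 to 0.874), and Mir214 at -0.43, or 0.741 times (0.724 to 0.758). These 3 ratios lay close together, and their intervals overlapped. Mir140 stood at -0.12, or 0.923 times (0.906 to 0.941), an interval apart from all 3. The ratio of Mir199a-1, -0.61 or 0.601 times (0.303 to 1.16), had an interval that included equal levels.

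Over the 316 genes the median log2 ratio was -0.04, with the central 80% between -0.41 and 0.24. The median of the 4 genes that reached 100 reads was -0.45. Lower ratios than that of Mir199b were found in 21 of the 316 genes, than that of Mir199a-2 in 24, than that of Mir214 in 29 and than that of Mir140 in 109. The common coefficient of variation between the pools, from edgeR's dispersion over 403 genes with at least 10 reads in both, was 16.4%, and it holds dissection and library preparation as well as the embryos.

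**Figure D3:**
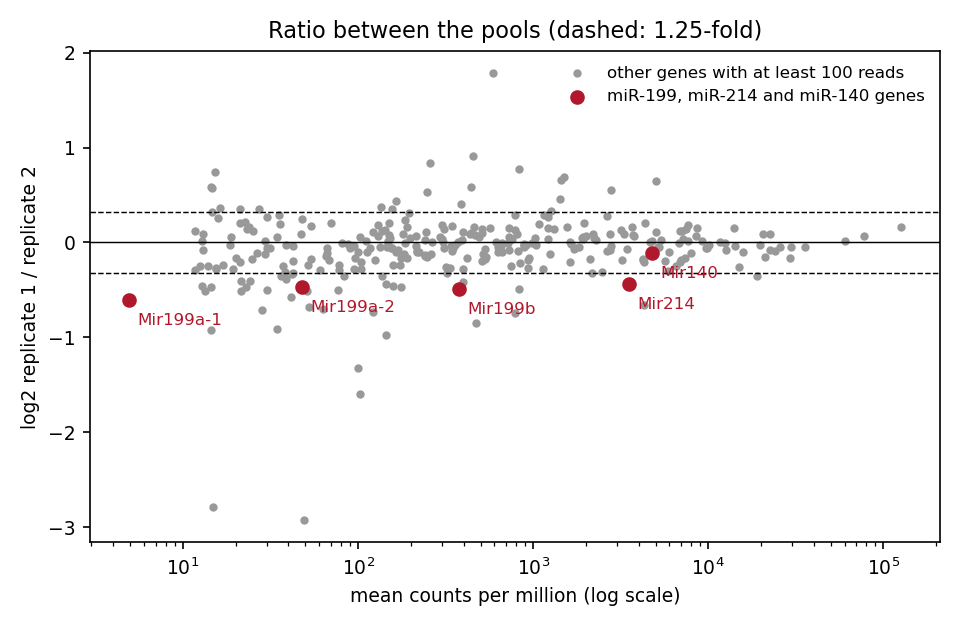
Log2 ratio of replicate 1 to replicate 2 against mean CPM on a log axis, with the miR-199, miR-214 and miR-140 genes in red and the other genes with at least 100 reads in grey. Dashed lines mark a pool 25% above the other. Mir214, Mir199b and Mir199a-2 lie below the lower dashed line at -0.43, -0.49 and -0.47, and Mir140 lies inside the lines at -0.12.

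Other miRNA genes of mesenchyme, cartilage and vessel wall were read for comparison from a list of 7, of which 6 reached 100 reads and Mir145b had 0 reads in both pools. Of these 6, 2 were lower in replicate 1 by the rule of 25% and 0 higher, with a median log2 ratio of -0.28. Over all 316 genes with at least 100 reads, 13.3% were lower and 6.96% higher, with a median of -0.04. A list of 6 genes is too small to set apart from that share. Mir145a, of smooth muscle and pericytes, was lower at -0.50, with 63.7 CPM in replicate 1 and 90.5 CPM in replicate 2. Mir675, cut from the imprinted transcript H19, was lower at -0.47, with 18.9 CPM in replicate 1 and 26.6 CPM in replicate 2.

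Mir143, the neighbour of Mir145a, stood at 5258 CPM in replicate 1, against 6487 CPM in replicate 2, a log2 ratio of -0.30. Mir483, in an intron of Igf2, stood at 303.0 CPM in replicate 1, against 364.3 CPM in replicate 2, a ratio of -0.27. These 2 were not called. Mir455, a cartilage miRNA like Mir140, stood at 501.2 CPM in replicate 1, against 558.5 CPM in replicate 2, a ratio of -0.16, close to the -0.12 of Mir140. Mir21a, which many cell types express, stood at 7259 CPM in replicate 1, against 7073 CPM in replicate 2, a ratio of 0.04.

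Markers of other cell types also differed between the pools, where 13.3% of all 316 genes were called lower and 6.96% higher. The endothelial Mir126a stood at 16564 CPM in replicate 1, against 21180 CPM in replicate 2, a log2 ratio of -0.35. The epithelial list of 7 genes summed to 13628 CPM in replicate 1, against 10008 CPM in replicate 2, with 2 genes lower and 5 higher in replicate 1 by the rule of 25%. Of 5 neural genes that reached 100 reads, 0 were lower and 1 was higher, Mir153 at 0.55. The 9 neural genes with a row summed to 9559 CPM in replicate 1, against 8703 CPM in replicate 2. Without Mir153 the direction turned, with 6255 CPM for the other 8 in replicate 1, against 6452 CPM in replicate 2. The 2 leukocyte genes with a row summed to 361.9 CPM in replicate 1, against 436.2 CPM in replicate 2, with 1 lower. The 2 red cell genes found by their listed names summed to 317.8 CPM in replicate 1, against 238.3 CPM in replicate 2, with 1 lower and 1 higher. That list also named Mir486a and Mir486b, which have no row. A row named Mir486, with 39 reads in replicate 1 and 55 reads in replicate 2, is outside the sum. The muscle list summed to 3.23 CPM in replicate 1, against 26.8 CPM in replicate 2, nearly all of it Mir206, with Mir133a-1 and Mir133a-2 at 0 reads. Reads that fit both of these copies are outside the counts, so 0 reads do not show that their miRNA was absent. The part of these other cell types in the differences of the miR-199 and miR-214 genes was not tested.

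**Figure D4:**
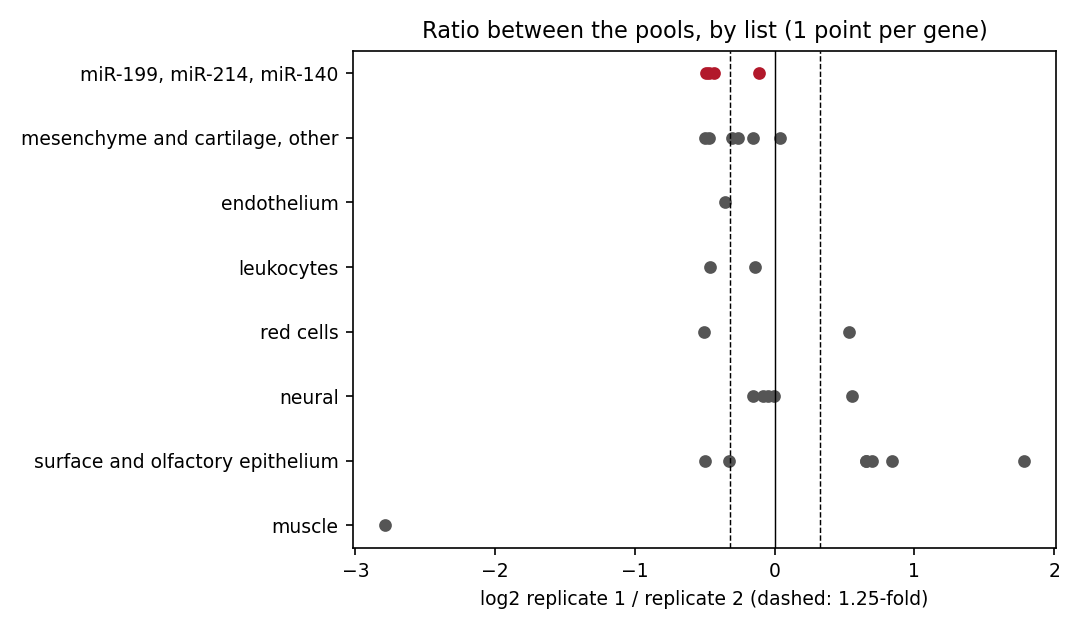
Log2 ratio of replicate 1 to replicate 2, a point per gene with at least 100 reads, by list, with dashed lines where a pool stands 25% above the other. The top row in red holds Mir199b, Mir199a-2, Mir214 and Mir140. The mesenchyme and cartilage list spans -0.50 to 0.04, the neural list has 4 genes near 0 and Mir153 at 0.55, and the epithelial list lies on both sides.

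Genes with the same seed as a listed arm of the 5 genes were few. RefSeq lists no 5p arm for Mir140, so the seed of that arm was not searched. Only Mir761 shares the seed of miR-214-3p in the RefSeq table, and only Mir497b that of miR-140-3p.
miR-214-3p: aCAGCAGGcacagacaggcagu
miR-761: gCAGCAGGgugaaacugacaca
miR-140-3p: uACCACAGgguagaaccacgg
miR-497b: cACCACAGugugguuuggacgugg
Mir761 had 0 reads in both pools, which allows 0.692 CPM in the first pool and 0.682 CPM in the other. Mir497b had 5 reads in replicate 1 and 1 read in replicate 2. The tables do not separate the arms of a gene, so reads cannot be summed by seed.

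The bearing of shared arms on gene counts was set beside all 916 genes with a row and a RefSeq arm. At least 10 reads in both pools were found in 11 of 47 genes whose every listed arm occurs in another hairpin, or 23.4%. The share was 41 of 56, or 73.2%, where some arms do, and 312 of 813, or 38.4%, where none does. Mir199a-1, Mir199a-2 and Mir199b all belong to the 11. Mir199b is in this class by its 3p arm alone, since RefSeq lists no 5p arm for it. The stretch of its hairpin nearest to miR-199a-5p holds the substitution C10U. A read over that substitution fits no other M21 hairpin. Mir199b was 1 of 4 genes of the 47 with a mean of at least 100 CPM, and these classes depend on which arms RefSeq lists.

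The hairpins differed in predicted folding. Per 100 bases the minimum free energy was -61.4 kcal/mol for Mir214 and -55.9 kcal/mol for Mir140, against a median of -37.9 kcal/mol over 1894 hairpins, of which 3.01% and 6.60% were more stable. Mir199a-1 had -41.3, Mir199a-2 -38.6 and Mir199b -38.3 kcal/mol, near that median. The share of G and C was between 52.7% and 56.4% in the 5 hairpins and 51.0% in the median hairpin.

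The genes nearest in level, by the larger of the differences in log2(CPM + 1) in the pools, were Mir125a, Mir324 and Mir1983 for Mir140, the first within 0.07. For Mir214 they were Mir361, Mir484 and Mir379, the first within 0.22, and for Mir199b Mir1251, Mir185 and Mir503, the first within 0.13. For Mir199a-2 they were Mir152, Mir574 and Mir7j, the first within 0.10, where Mir152 stood at 41.8 CPM in replicate 1, against 59.8 CPM in replicate 2. For Mir199a-1 they were Mir344e, Mir3076 and Mir7083, each within 0.20. This likeness rests on 2 samples.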

How the data were processed

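The deposited tables hold raw read counts per miRNA gene for both strands, the gene strand and the opposite strand, not normalised by the authors. The columns name no strand, so the strands were inferred from the counts: in all 1973 genes the first value equalled the sum of the others, and the column with 97.3% (replicate 1) and 97.2% (replicate 2) of assigned reads was used as the gene strand. The counts come from alignments to mm10 with annotation M4, per the deposited notes. Aligner, counter and trimming were not given in the sources used here. Rows without a gene were set aside: unmapped reads (17.5% of all reads in replicate 1 and 16.8% in replicate 2), reads matching several places (37.9% in both), reads in no feature on the gene strand (5.49% in replicate 1 and 5.93% in replicate 2) and ambiguous reads (0).

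CPM were computed over gene-strand reads. Of 1973 IDs, 1894 matched GENCODE M21, and all 5 genes did. Mature and hairpin sequences came from RefSeq (GRCm38.p6), and the M21 hairpins of the 5 genes were identical. Shared windows were searched among M21 hairpins only, so uniqueness in the genome was not examined. Hairpins were folded with ViennaRNA 2.7.2. Read intervals are exact Poisson, exact binomial or Wilson at 95%, and quotients of ratios have a log-normal interval. Over 403 genes the counts of the pools differed by 75.3 in chi-square for each degree of freedom, so they were not the same library deposited again. With 1 group, edgeR's quasi-likelihood test could not be fitted, and edgeR 4.0.16 gave the common dispersion and TMM scaling and DESeq2 1.42.0 the alternative size factors, in R 4.3.3. Other steps used Python 3.11.15, SciPy 1.17.1 and NumPy 2.4.6. Simulated counts were used to check the log2 ratio between pools, without variation beyond counting, and the common dispersion. The other steps were not tested on simulated data. The members, the lists and the rules were chosen with earlier results of these data known. Named were the 5 genes, the 3 genes nearest each in level, genes that overlap them or share a transcript or seed, and the list of other mesenchyme and cartilage genes. Lists of other cell types are given by sums and counts, and their members named in the text were chosen after their values were seen, as was the neural sum without Mir153.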

Additional observations from a re-analysis of the deposited data

Results flagged for a closer look

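The only signals picked out lay outside the measurement, and each exceeds what a count of 0 allows, as any such total would, since there were no control samples. Reads that matched several places numbered 4213961 in replicate 1 and 4224434 in replicate 2. Reads of miR-199a-3p and miR-199b-3p match 3 hairpins and can lie among them, but the tables do not say which arms these reads hold. Reads in no feature on the gene strand numbered 609465 in replicate 1 and 661079 in replicate 2, and reads on the strand opposite to a gene 119609 in replicate 1 and 125632 in replicate 2. Of the opposite-strand reads, 2 lay at Mir214 and 0 at the other genes of the group.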

How the results depend on the processing

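All 5 genes stayed lower in replicate 1, the order by level held, and Mir199a-1, Mir199a-2 and Mir199b remained the 3 genes with shared windows, under every alternative run for each of these results. Per 1000000 of all reads in the library the levels were 1879 for Mir140, 1392 for Mir214, 147.1 for Mir199b, 18.8 for Mir199a-2 and 1.93 for Mir199a-1, since fewer reads are assigned than sequenced. With the most abundant gene left out of the library size, Mir140 stood at 5481 CPM and the 5 genes held 1.00% of reads, against 0.876% ± 0.112 (SD, n = 2). With TMM library sizes the log2 ratio of replicate 1 to replicate 2 was -0.39 for Mir214 and -0.072 for Mir140. The number of members called lower was 3 of 4, 4 of 5 with at least 1 or 10 reads, 2 of 3 with at least 1000 reads, and 0 of 4 at 1.5-fold and at 2-fold. The share of all genes called lower was 4.43% and 1.27% at these folds, 20.97% with at least 1 read, 20.9% with at least 10 reads and 7.21% with at least 1000 reads. The common coefficient of variation was 16.5% with at least 1 read in both pools and 14.2% with at least 100. Without replicate 1 or replicate 2 the levels ranged from 4599 to 4981 CPM for Mir140, from 3018 to 4075 CPM for Mir214, from 311.1 to 438.5 CPM for Mir199b, from 39.9 to 55.7 CPM for Mir199a-2 and from 3.69 to 6.14 CPM for Mir199a-1. The share of the 5 genes ranged from 0.797% to 0.956%. In an alternative chosen after seeing the data, the log2 ratio of the summed neural list, 0.14, was -0.045 without Mir153. No paired analysis was possible because the series has 1 group. Depth limits Mir199a-1, with 16 reads in replicate 1 and 27 reads in replicate 2.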
